A study of Mus musculus with 6 samples.

Results

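The subject is a set of 9 genes that let an artery receive constrictor signals: the peptide endothelin-1 (Edn1), the enzyme that activates it (Ece1), the endothelin receptors Ednra and Ednrb, the alpha-1 adrenergic receptors Adra1a, Adra1b and Adra1d, the vasopressin receptor Avpr1a and the thromboxane receptor Tbxa2r. They were chosen by name, by matching the gene identifiers of the expression files to mouse symbols, and are 9 of 27815 genes listed. All 9 passed the filter on low values and are among the 14074 genes tested. Polyadenylated RNA was sequenced from mouse aortas in 6 libraries, 2 in each of 3 groups, all on the C57BL/6 background. The ApoE group was ApoE-/-, fed chow until 16 months old, an age at which its plaques were calcified. The CKD group, a kidney failure model in which the vessel's media calcifies, had the poles of the left kidney removed at 8 weeks of age and the right kidney removed after 1 week of recovery, followed by 4 weeks on a diet with 2% phosphate and drinking water with 0.45% NaCl. Its age label reads 16 months, which conflicts with that protocol. The Ctrl group was wild type and 2 months old, so for ApoE vs Ctrl the effects of age and of genotype cannot be told apart. For CKD vs Ctrl the effects of surgery, diet, drinking water and age cannot be told apart either. ApoE vs CKD joins genotype to surgery, diet and drinking water, and the difference in age there is unclear. No label says that the libraries of a group came from separate animals, so SDs and p-values cover the spread among libraries alone, and that spread may be technical.

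Constrictor receptors of the vessel wall couple mainly to the G protein Gq, which activates phospholipase C and releases calcium in smooth muscle, and several also couple to G12 and G13. Endothelin-1 is made mostly by the endothelium as an inactive precursor, which Ece1 cuts to the active peptide. Ednra on smooth muscle contracts it, whereas Ednrb on endothelium relaxes the vessel and clears the peptide, and Ednrb on smooth muscle contracts it. Alpha-1 receptors answer noradrenaline from sympathetic nerves, and Adra1d is known as the main contractile alpha-1 receptor of the mouse aorta.

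By the step between low values, depth was 14.44 to 16.64 M reads per library, at which a single read over 2 kb of exon adds 0.0300 to 0.0346 FPKM. FPKM is a level per kilobase of exon, scaled to depth, so levels of different genes can be set side by side. Genes that overlap another gene are an exception, since their reads cannot be separated here. Apoe, which the knockout targets, had 13.2 and 11.4 FPKM in the ApoE libraries, against 756 and 627 FPKM in the Ctrl libraries, while the CKD libraries had 1410.4 and 1447 FPKM. Smooth muscle and endothelial markers, which define the aorta, were present in every library. Summed over 10 markers, smooth muscle RNA stood at 718 and 626 FPKM in ApoE, 3813 and 6449 FPKM in CKD, and 9094 and 8159.8 FPKM in Ctrl. Fewer cells of a type and less RNA per cell cannot be told apart in such bulk tissue, which applies to every result given here.

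In ApoE aortas 4 of the 9 genes fell relative to Ctrl aortas, namely Adra1d, Avpr1a, Tbxa2r and Adra1b, and 1 rose, Edn1. In CKD aortas Avpr1a and Tbxa2r fell, and limma called 0 members higher (2, Ednrb and Adra1b, at an unadjusted p under 0.05). Between the models, Adra1b, Adra1d and Tbxa2r were lower and Edn1 was higher in ApoE than in CKD. Calls are adjusted p-values below 0.05 from limma on log2(FPKM + 1), adjusted over all genes tested. Of all genes tested, 24.3% were called lower and 19.8% higher in ApoE vs Ctrl, 3.21% lower and 2.23% higher in CKD vs Ctrl, and 21.2% lower and 18.5% higher in ApoE vs CKD. A call in ApoE vs Ctrl or in ApoE vs CKD is therefore common among all genes (44.1% and 39.7% in either direction), and a call in CKD vs Ctrl is uncommon (5.44%). The median log2 fold change of the 9 genes was -0.52 in ApoE vs Ctrl (all genes -0.07), 0.55 in CKD vs Ctrl (all genes -0.03) and -0.56 in ApoE vs CKD (all genes -0.04). Both disease groups are compared with the same Ctrl libraries, so these comparisons are not independent of each other.

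**Figure D1:**
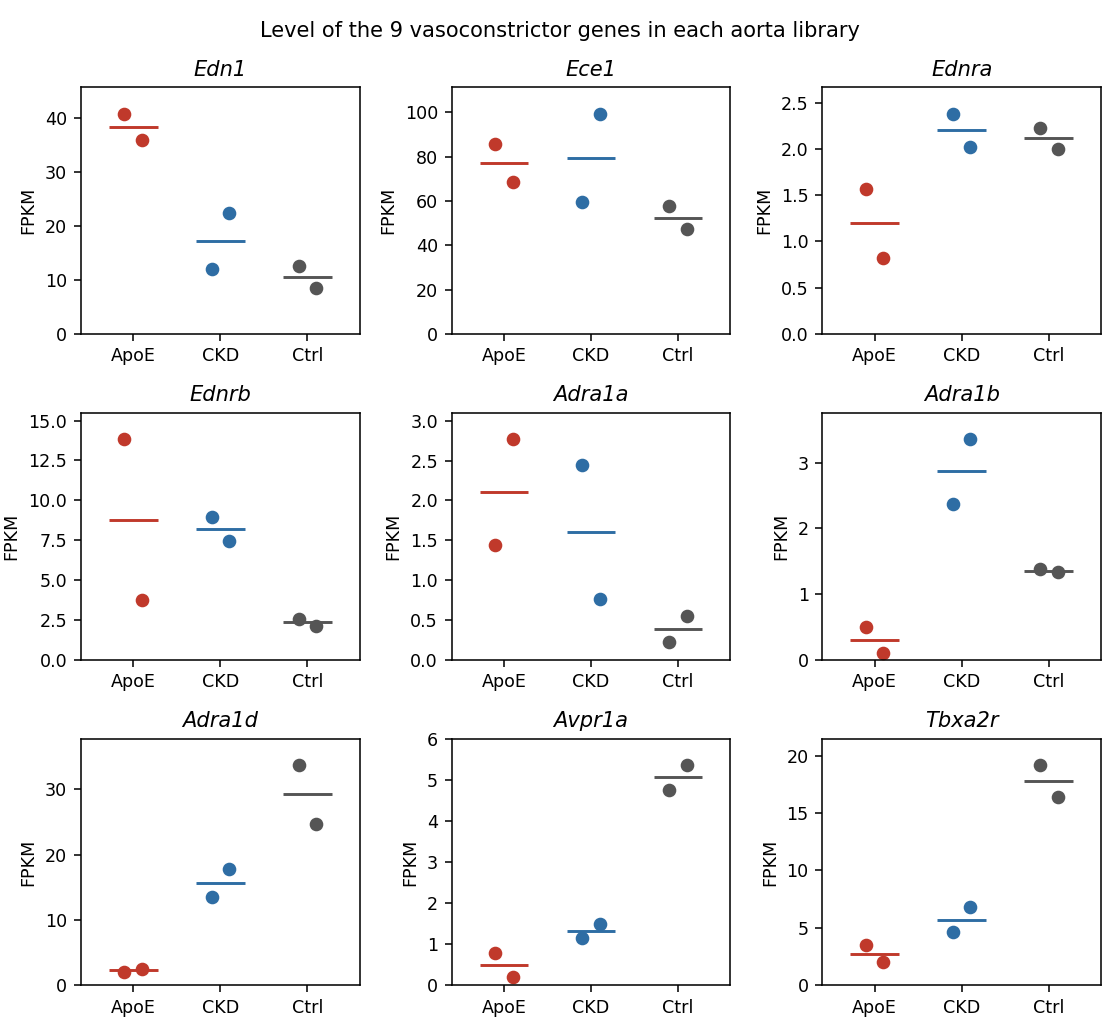
Level of each of the 9 genes, in FPKM, in the 2 libraries (points) of the ApoE, CKD and Ctrl groups, with the group mean as a bar and a separate vertical scale from 0 for each gene. Adra1d, Avpr1a and Tbxa2r are lowest in ApoE and highest in Ctrl, and Edn1 is highest in ApoE, at 40.8 and 35.9 FPKM.

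Edn1 (ENSMUSG00000021367; GRCm38 chromosome 13, 42301476 to 42307990, + strand) encodes the ligand. Mouse has 3 endothelin genes, and the coding stretch of the mature peptide is shown for each because the peptides are close in sequence, while the RNA of only 1 was abundant enough here to be tested. The stretches come from GENCODE M21 transcripts on GRCm38, run 5′ to 3′ through 21 codons, and have the 4 cysteine codons, which make the disulfide bridges of the peptide, in capitals.
Edn1: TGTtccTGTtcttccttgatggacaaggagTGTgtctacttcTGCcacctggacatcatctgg
Edn2: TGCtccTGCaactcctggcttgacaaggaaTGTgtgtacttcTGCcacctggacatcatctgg
Edn3: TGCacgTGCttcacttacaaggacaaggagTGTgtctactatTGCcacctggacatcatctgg
Edn2 shares 53 of 63 bases and 18 of 21 encoded residues with Edn1, and Edn3 shares 50 bases and 15 residues. Edn2 was at most 0.181 FPKM in any library and was listed at 0 in 2 of them, and Edn3 lay between 0.0327 and 1.01 FPKM, so neither was tested. Edn1 was therefore the endothelin that these libraries could be compared for.

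Edn1 stood at 40.8 and 35.9 FPKM in ApoE, 12.05 and 22.3 FPKM in CKD, and 12.6 and 8.55 FPKM in Ctrl. Both ApoE libraries lay above all others, and the CKD and Ctrl libraries overlapped, with CKD 1 below Ctrl 1. The mean in ApoE was 38.4 ± 3.50 FPKM (SD, n = 2), against 10.6 ± 2.83 FPKM in Ctrl (SD, n = 2), 3.63-fold higher. This is a log2 fold change of 1.79 (SE 0.31, limma adjusted p = 0.00678). With each library left out in turn it stayed called, with values from 1.53 to 2.04 and adjusted p from 0.00328 to 0.0475, and once adipocyte level entered the model it was 2.99. Against CKD the log2 fold change of ApoE was 1.17 (SE 0.31, limma adjusted p = 0.0300), a call lost without ApoE 1 (0.133), ApoE 2 (0.107) or CKD 1 (0.0737). CKD and Ctrl differed by 0.62 (95% interval -0.15 to 1.38, limma adjusted p = 0.239), and the value was 1.04 without CKD 1, 0.20 without CKD 2, 0.36 without Ctrl 2 and 1.85 with the adipocyte covariate, none of them called.

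Ece1 (ENSMUSG00000057530; chromosome 4, 137862237 to 137965229, + strand), the activating protease, was the most abundant member in all 3 groups. It stood at 85.5 and 68.8 FPKM in ApoE, 59.5 and 99.4 FPKM in CKD, and 57.6 and 47.3 FPKM in Ctrl. The Ctrl libraries were the lowest pair, and the wide CKD pair enclosed the ApoE pair. No comparison passed the threshold, with log2 fold changes of 0.55 in ApoE vs Ctrl (95% interval -0.14 to 1.23, limma adjusted p = 0.162) and 0.55 in CKD vs Ctrl (-0.14 to 1.24, adjusted p = 0.242). The CKD vs Ctrl value was 0.92 without CKD 1, 0.18 without CKD 2 and 1.54 with adipocyte level as a covariate, none of them called. ApoE and CKD differed by -0.0044 (-0.69 to 0.68, limma adjusted p = 0.992). For ApoE vs Ctrl the adjusted p came to 0.0498 without CKD 1, 0.0496 without CKD 2, 0.0494 in a fit of the 4 ApoE and Ctrl libraries alone and 0.0372 with the adipocyte covariate, where the log2 fold change was 1.51.

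Ednra (ENSMUSG00000031616; chromosome 8, 77663031 to 77724464, - strand), the contractile endothelin receptor, was a low transcript in every group. It stood at 1.57 and 0.823 FPKM in ApoE, 2.38 and 2.02 FPKM in CKD, and 2.23 and 2.00 FPKM in Ctrl. Both ApoE libraries were below the other 4, and CKD and Ctrl overlapped. The log2 fold change was -0.52 in ApoE vs Ctrl (95% interval -1.01 to -0.03, limma adjusted p = 0.0782) and 0.04 in CKD vs Ctrl (-0.45 to 0.53, adjusted p = 0.915). ApoE vs CKD gave -0.56 (-1.05 to -0.07, limma adjusted p = 0.0693). Among the libraries left out, only the absence of ApoE 1 took ApoE vs Ctrl (-0.77, adjusted p = 0.0355) and ApoE vs CKD (-0.81, adjusted p = 0.0355) past the threshold. Without ApoE 2 they were -0.28 (adjusted p = 0.281) and -0.32 (0.245).

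Ednrb (ENSMUSG00000022122; chromosome 14, 103814625 to 103844402, - strand), the other endothelin receptor, stood at 13.8 and 3.72 FPKM in ApoE, 8.93 and 7.46 FPKM in CKD, and 2.58 and 2.11 FPKM in Ctrl. All 4 libraries of the disease models were above both Ctrl libraries, and the ApoE libraries lay farther apart in FPKM than the means of CKD and Ctrl did. The log2 fold change was 1.33 in ApoE vs Ctrl (95% interval 0.09 to 2.56, limma adjusted p = 0.0773) and 1.46 in CKD vs Ctrl (0.22 to 2.69, adjusted p = 0.123). ApoE 1 and ApoE 2 pulled the value apart: without ApoE 1 it was 0.50 in ApoE vs Ctrl and not called (adjusted p = 0.107), without ApoE 2 it was 2.15 and called (0.00712), and against CKD the ApoE value of -0.13 (-1.37 to 1.10, adjusted p = 0.853) became -0.96 without ApoE 1 (adjusted p = 0.0290) and 0.69 without ApoE 2 (0.0645). Set against Ednra, Ednrb RNA was 8.80 and 4.51 times as abundant in ApoE, 3.75 and 3.69 times in CKD, and 1.16 and 1.05 times in Ctrl. In Ctrl aortas the endothelin receptors were thus at near equal levels per length. In each disease library Ednrb was the more abundant by a wide margin. Ednra, unlike Ednrb, overlaps an annotated noncoding gene on the other strand. In unstranded libraries its level, and so this ratio, may be misstated.

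Adra1d (ENSMUSG00000027335; chromosome 2, 131545850 to 131562283, - strand) showed the largest fall of the set on the log2(FPKM + 1) scale. It stood at 2.08 and 2.44 FPKM in ApoE, 13.5 and 17.8 FPKM in CKD, and 33.7 and 24.7 FPKM in Ctrl. The groups did not overlap, with ApoE lowest, CKD between and Ctrl highest. The mean was 2.26 ± 0.256 FPKM in ApoE and 29.2 ± 6.32 FPKM in Ctrl (SD, n = 2 each), 12.9-fold lower in ApoE. The fall of 3.20 on the log2 scale (SE 0.20, limma adjusted p = 0.000311) stayed between -3.41 and -2.98 and called with any 1 library left out. Against CKD, with a mean of 15.6 ± 3.04 FPKM (SD, n = 2), it was -2.34 (SE 0.20, limma adjusted p = 0.00112). CKD vs Ctrl gave -0.86 (95% interval -1.36 to -0.36), which missed the threshold (limma adjusted p = 0.0643) except without CKD 2 (-1.05, adjusted p = 0.0411), and was -0.19 with adipocyte level as a covariate.

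Adra1b (ENSMUSG00000050541; chromosome 11, 43774606 to 43901210, - strand), the alpha-1 receptor best known from liver and heart, stood at 0.501 and 0.0994 FPKM in ApoE, 2.38 and 3.36 FPKM in CKD, and 1.39 and 1.33 FPKM in Ctrl. The models lay on opposite sides of Ctrl, ApoE below it and CKD above it. The ApoE values rest on 27 and 5 reads. In ApoE vs Ctrl the log2 fold change was -0.88 (SE 0.22, limma adjusted p = 0.0216), and that call was lost without Ctrl 1 (0.0991), Ctrl 2 (0.0858) or ApoE 2 (0.0977), and likewise with the adipocyte covariate (-0.43, adjusted p = 0.541). On a pseudocount of 0.1, which compresses low levels less, it was -2.07. CKD vs Ctrl gave 0.70 (95% interval 0.17 to 1.23, limma adjusted p = 0.101). The direct comparison of the models passed the threshold, at -1.58 in ApoE vs CKD (SE 0.22, limma adjusted p = 0.00377, and -3.08 on a pseudocount of 0.1), and did so with any 1 library left out.

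Adra1a (ENSMUSG00000045875; chromosome 14, 66635251 to 66771168, + strand), the alpha-1 receptor of small resistance arteries, was the least abundant member in Ctrl. It stood at 1.44 and 2.77 FPKM in ApoE, 2.44 and 0.757 FPKM in CKD, and 0.221 and 0.552 FPKM in Ctrl. All 4 disease libraries were above both Ctrl libraries, and the models overlapped. The log2 fold change of 1.14 in ApoE vs Ctrl (95% interval 0.21 to 2.07) missed the threshold (limma adjusted p = 0.0535), but passed it without CKD 1 (0.0250), without CKD 2 (0.0247) and on a pseudocount of 0.1 (2.199, adjusted p = 0.0403). In CKD vs Ctrl it was 0.84 (-0.09 to 1.77, limma adjusted p = 0.200), and in ApoE vs CKD 0.30 (-0.63 to 1.23, adjusted p = 0.557). The CKD vs Ctrl value was 0.35 without CKD 1 and 1.32 without CKD 2, neither called. With adipocyte level as a covariate the signs turned, to -0.15 in ApoE vs Ctrl and -0.48 in CKD vs Ctrl, neither called. Summed over 8 markers, adipocyte RNA stood at 2890.4 and 3033 FPKM in ApoE, 7176 and 2404.5 FPKM in CKD, and 377 and 924 FPKM in Ctrl, the same order of the 2 libraries within each group as for Adra1a. With 2 libraries per group such an order is weak, and a part of adipocytes in the Adra1a level was not tested.

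The makeup of the alpha-1 family differed between the groups along with its total. The summed level of the 3 receptors was 4.02 and 5.31 FPKM in ApoE, 18.3 and 21.9 FPKM in CKD, and 35.3 and 26.6 FPKM in Ctrl. Adra1d made up 51.7% and 46.0% of that sum in ApoE, 73.6% and 81.2% in CKD, and 95.4% and 92.9% in Ctrl. Adra1a made up 35.8% and 52.1% in ApoE, 13.4% and 3.46% in CKD, and 0.628% and 2.07% in Ctrl. Ctrl aortas thus carried Adra1d almost alone, and in ApoE 2 Adra1a RNA exceeded that of Adra1d. These shares describe the libraries and carry no test of their own.

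**Figure D2:**
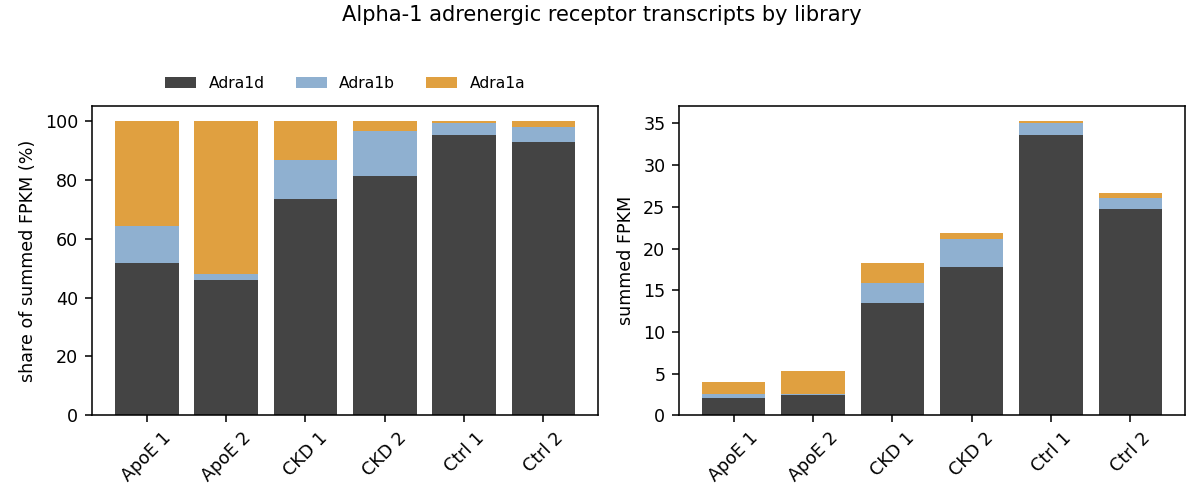
Alpha-1 adrenergic receptor RNA in each library as the share of each gene in the summed FPKM of Adra1a, Adra1b and Adra1d (left, percent) and as the summed FPKM itself (right). Adra1d makes up 51.7% and 46.0% of the sum in the ApoE libraries and 95.4% and 92.9% in the Ctrl libraries, while the sum is lowest in ApoE.

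Avpr1a (ENSMUSG00000020123; chromosome 10, 122448499 to 122453452, + strand), the vascular vasopressin receptor, fell in both models. It stood at 0.776 and 0.202 FPKM in ApoE, 1.17 and 1.50 FPKM in CKD, and 4.77 and 5.37 FPKM in Ctrl. The 3 groups did not overlap, and the ApoE values rest on 33 and 8 reads. The mean was 0.489 ± 0.406 FPKM in ApoE and 5.07 ± 0.422 FPKM in Ctrl (SD, n = 2 each), 10.4-fold lower in ApoE. That is a log2 fold change of -2.05 (SE 0.22, limma adjusted p = 0.00130), or -3.33 on a pseudocount of 0.1. Once adipocyte level entered the model it was -1.87, with a larger SE of 0.455, and no longer called (limma adjusted p = 0.0574). In CKD, with a mean of 1.33 ± 0.240 FPKM (SD, n = 2), the log2 fold change against Ctrl was -1.38 (SE 0.22, limma adjusted p = 0.0356), a 3.80-fold difference of means. ApoE vs CKD gave -0.67 (95% interval -1.21 to -0.13, limma adjusted p = 0.0554), with -0.95 without ApoE 1 (adjusted p = 0.0289) and -0.39 without ApoE 2 (0.190).

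Tbxa2r (ENSMUSG00000034881; chromosome 10, 81328731 to 81335172, + strand), the receptor for thromboxane A2 on smooth muscle and platelets, fell in both models too. It stood at 3.47 and 2.00 FPKM in ApoE, 4.65 and 6.78 FPKM in CKD, and 19.2 and 16.4 FPKM in Ctrl. Again the groups did not overlap, and the CKD libraries lay closer to ApoE than to Ctrl. The mean was 2.73 ± 1.04 FPKM in ApoE and 17.8 ± 1.99 FPKM in Ctrl (SD, n = 2 each), 6.50-fold lower in ApoE. On the log2 scale ApoE vs Ctrl gave -2.35 (SE 0.25, limma adjusted p = 0.00125), and with the adipocyte covariate -1.67, no longer called (adjusted p = 0.0521). In CKD, with a mean of 5.72 ± 1.51 FPKM (SD, n = 2), it was -1.50 against Ctrl (SE 0.25, limma adjusted p = 0.0380). ApoE vs CKD gave -0.86 (SE 0.25, limma adjusted p = 0.0390), a call lost without Ctrl 1 (0.0662), Ctrl 2 (0.0660), ApoE 2 (-0.57, 0.169) or CKD 2 (0.138), and likewise under the replicate block (0.0636), with no filter on low values (0.0836) and with only the 4 libraries compared (0.0671).

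The CKD vs Ctrl calls of Avpr1a and Tbxa2r depended on the libraries in the fit. Of the 6 libraries left out in turn, CKD 2 was the only one whose absence kept both calls. Without each of the others the adjusted p was 0.0668 to 0.190 for Avpr1a and 0.0705 to 0.216 for Tbxa2r. With 1 library left out the size stayed between -1.49 and -1.28 for Avpr1a and between -1.73 and -1.27 for Tbxa2r. Without Ctrl 1 or without Ctrl 2, limma called 0 of all genes in CKD vs Ctrl, with 2097 and 2560 genes at an unadjusted p under 0.05. With adipocyte level as a covariate neither was called, at -1.19 for Avpr1a (adjusted p = 0.552) and -0.79 for Tbxa2r (0.634).

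**Figure D3:**
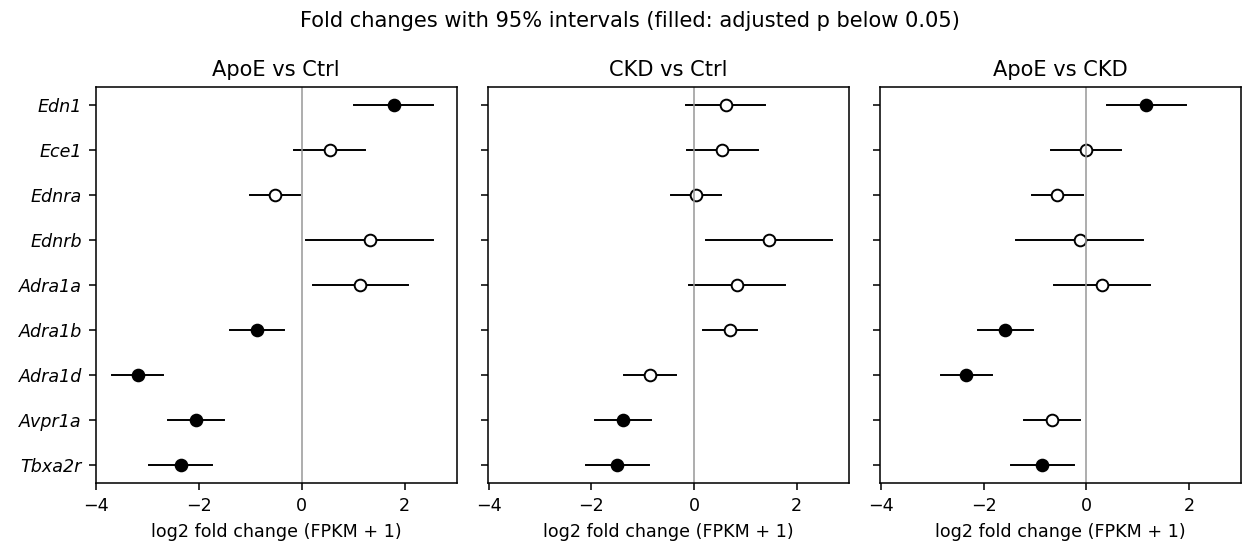
Log2 fold change of each of the 9 genes on the scale of FPKM + 1 in ApoE vs Ctrl, CKD vs Ctrl and ApoE vs CKD, with 95% intervals from limma as lines and filled points for an adjusted p below 0.05. Adra1d lies farthest from 0 in ApoE vs Ctrl, at -3.20, and Adra1b lies on opposite sides of 0 in the left and middle panels, at -0.88 and 0.70.

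The libraries of ApoE and Ctrl did not overlap for any of the 9 genes, but the same was true of 79.4% of all genes tested. For CKD and Ctrl 7 of 9 genes did not overlap, against 64.2% of all genes, and for ApoE and CKD 6 of 9, against 71%. Non-overlap alone therefore sets the 9 genes little apart from the rest.

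The order of levels within a group differed between groups. In ApoE aortas Ece1 led, then Edn1, then Ednrb, and the libraries of Tbxa2r, Adra1d, Adra1a and Ednra overlapped each with the next, as did those of Avpr1a and Adra1b at the bottom. In CKD aortas Ece1 led, Edn1 and Adra1d overlapped in the next places, and Ednrb and Tbxa2r came before the overlapping low levels of Adra1b, Ednra, Adra1a and Avpr1a. In Ctrl aortas the order was Ece1, Adra1d, Tbxa2r, Edn1, Avpr1a, Ednrb, Ednra, Adra1b and Adra1a, and the only neighbours whose libraries overlapped were Ednrb and Ednra. Among the receptors of this set, Adra1d and Tbxa2r were thus the most abundant in Ctrl, and Ednrb in ApoE.

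Promoter sequence is shown for the ligand that rose and for the receptors that fell in both models, as a reference for the genes the calls turn on. The windows are from RefSeq on GRCm38.p6, cover 250 bases before to 50 after an annotated start, and were found for 7 of the 9 genes. The strand shown is that of the gene, and capitals mark the motif matches listed after the sequences.
Edn1 promoter, chr13:42301226-42301525, + strand: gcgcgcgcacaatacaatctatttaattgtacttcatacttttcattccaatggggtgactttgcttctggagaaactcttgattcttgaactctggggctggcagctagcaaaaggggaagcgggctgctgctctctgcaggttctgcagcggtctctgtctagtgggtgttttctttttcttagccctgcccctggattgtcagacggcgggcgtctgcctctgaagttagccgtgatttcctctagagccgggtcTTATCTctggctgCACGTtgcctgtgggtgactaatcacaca
Avpr1a promoter, chr10:122448249-122448548, + strand: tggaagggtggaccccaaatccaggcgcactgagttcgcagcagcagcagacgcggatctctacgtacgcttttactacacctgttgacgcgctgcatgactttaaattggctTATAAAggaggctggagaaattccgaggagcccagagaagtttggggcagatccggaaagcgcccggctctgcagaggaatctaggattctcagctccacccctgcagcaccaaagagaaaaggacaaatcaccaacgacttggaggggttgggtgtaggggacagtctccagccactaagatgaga
Tbxa2r promoter, chr10:81328453-81328752, + strand: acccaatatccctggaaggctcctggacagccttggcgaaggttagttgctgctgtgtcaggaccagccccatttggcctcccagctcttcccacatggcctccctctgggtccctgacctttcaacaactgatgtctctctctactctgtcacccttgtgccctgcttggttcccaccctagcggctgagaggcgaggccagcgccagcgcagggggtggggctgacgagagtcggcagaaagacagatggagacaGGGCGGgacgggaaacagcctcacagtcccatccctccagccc
The motifs searched on both strands were TATAAA (a core promoter element, in 13.6% of 32851 promoter windows of the same length), TGANTCA (AP-1, 7.81%), AGATAA (a site of zinc finger factors of the endothelium, 11.2%), GGGCGG (GC box, 35.7%), ACGTG (core of a hypoxia element, 19.6%) and the CArG box (1.63%), and no 2 matches overlapped. The Edn1 window holds AGATAA and ACGTG, both on the minus strand, 8 and 21 bases after the annotated start. That of Avpr1a holds TATAAA 137 bases before the start, and that of Tbxa2r holds GGGCGG 7 bases after it. Of the windows not shown, that of Ece1 holds 2 GC boxes, that of Adra1b holds 1 AP-1 match, and those of Ednra and Ednrb hold none of the 6 motifs. A match describes letters in the window and is no evidence of binding, and a missing match says only that these letters are not in it.

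Markers of several cell types differed between the groups. All 10 smooth muscle markers were called lower in ApoE vs Ctrl (median log2 fold change -3.56) and 2 of 10 in CKD vs Ctrl (8 lower unadjusted, median -0.76), with Acta2 at 494 and 437 FPKM in ApoE, 2393 and 4526.5 FPKM in CKD, and 6034 and 5402 FPKM in Ctrl. Of 10 endothelial markers, 5 were higher and 1 was lower in ApoE vs Ctrl and 0 were called by limma in CKD vs Ctrl (3 higher and 2 lower unadjusted), and their sum stood at 364 and 361 FPKM in ApoE, 239.5 and 322 FPKM in CKD, and 407.5 and 342 FPKM in Ctrl. Of 10 macrophage markers, 9 were higher in ApoE vs Ctrl and 5 in CKD vs Ctrl, with a sum of 7259.5 and 10903 FPKM in ApoE, 1134 and 1796 FPKM in CKD, and 563 and 514 FPKM in Ctrl. Of 8 adipocyte markers, 7 were higher in ApoE vs Ctrl and 1 in CKD vs Ctrl, and all 8 were higher unadjusted in each. Their median log2 fold change was 2.34 in ApoE vs Ctrl and 2.62 in CKD vs Ctrl, so the smaller count in CKD does not mean a smaller rise. Of 8 fibroblast markers, 5 were lower in ApoE vs Ctrl and 1 in CKD vs Ctrl. No smooth muscle, endothelial, macrophage, adipocyte or fibroblast marker was at 0 in any library.

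Markers of rarer tissues moved as well. Of 6 platelet and megakaryocyte markers, which bear on Tbxa2r, 4 were higher and 1 lower in ApoE vs Ctrl and 0 were called by limma in CKD vs Ctrl (2 higher unadjusted), with a sum of 132 and 79.1 FPKM in ApoE, 108 and 151 FPKM in CKD, and 48.8 and 43.2 FPKM in Ctrl. Most of that sum was Pf4, at 115 and 55.0 FPKM in ApoE, 101 and 144 FPKM in CKD, and 44.1 and 38.2 FPKM in Ctrl. Pf4 was not called in ApoE vs Ctrl (limma adjusted p = 0.0870) or CKD vs Ctrl (0.0680). Of 5 mesothelial markers 4 were tested, with 3 higher in ApoE vs Ctrl and 4 in CKD vs Ctrl, and a sum of 8.32 and 5.34 FPKM in ApoE, 53.0 and 42.1 FPKM in CKD, and 0.456 and 1.03 FPKM in Ctrl. The mast cell sum stood at 63.5 and 62.7 FPKM in ApoE, 80.4 and 85.7 FPKM in CKD, and 29.99 and 41.9 FPKM in Ctrl (4 of 7 higher in ApoE, 5 of 7 in CKD). Brown adipocyte markers summed to 781 and 850.04 FPKM in ApoE, 1178 and 391 FPKM in CKD, and 95.03 and 259.6 FPKM in Ctrl, with 2 of 6 higher in ApoE vs Ctrl and 1 in CKD vs Ctrl. Cardiomyocyte (2 higher and 2 lower of 6 tested in ApoE vs Ctrl, 3 higher in CKD vs Ctrl), skeletal muscle (4 of 5 lower, 1 lower) and Schwann cell and nerve markers (2 higher and 1 lower of 5, 0 called by limma with 2 higher unadjusted) had sums at or below 54.8 FPKM in every library. The part of these cell types in the changes of the 9 genes was not tested beyond the ratios that follow.

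Relative to the geometric mean of the smooth muscle markers, Adra1d varied little. Its log2 ratio was -3.27 and -2.79 in ApoE, -2.98 and -2.93 in CKD, and -2.72 and -3.04 in Ctrl, and all groups overlapped. Between ApoE and Ctrl that ratio differed by -0.15, beside a difference of -3.68 for Adra1d itself and -3.53 for the markers, all without a pseudocount. The fall of Adra1d was thus of the size of the fall of the markers.

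The other members kept no such ratio in both models. Avpr1a overlapped with Ctrl in ApoE (-4.69 and -6.39, against -5.54 and -5.25 in Ctrl), but lay below Ctrl in CKD (-6.51 and -6.50), a difference of -1.11. Tbxa2r lay above Ctrl in ApoE (-2.53 and -3.08, against -3.54 and -3.64 in Ctrl), a difference of 0.78, and below Ctrl in CKD (-4.51 and -4.32), a difference of -0.83. Ednra, whose own level differed by -0.89 between ApoE and Ctrl, lay 2.64 above Ctrl per smooth muscle marker in ApoE and 0.88 above in CKD, without overlap. Per fibroblast marker Ednra differed from Ctrl by only 0.14 in ApoE and 0.50 in CKD, and per endothelial marker by -1.72 and -0.21. The size and sign of its ratio thus depended on the marker set. Set against the endothelial markers, Edn1 was 1.06 higher in ApoE than in Ctrl without overlap, and overlapped between CKD and Ctrl. Edn1 itself differed by 1.88 between ApoE and Ctrl, and the geometric mean of the endothelial markers by 0.82. The sum of those markers, in contrast, overlapped between ApoE and Ctrl, so the size of this ratio depends on how the markers are combined. Against the adipocyte markers Adra1a stood at -6.09 and -5.37 in ApoE, -6.26 and -6.30 in CKD, and -5.66 and -5.61 in Ctrl, so that ApoE enclosed Ctrl and CKD lay 0.65 below it, whereas per smooth muscle marker it lay 6.04 above Ctrl in ApoE. Edn1 (-0.73 from Ctrl in ApoE and -1.94 in CKD) and Ednrb (-0.99 and -0.80) overlapped with Ctrl per adipocyte marker in both models. These ratios describe the libraries, and no test was run on them.

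**Figure D4:**
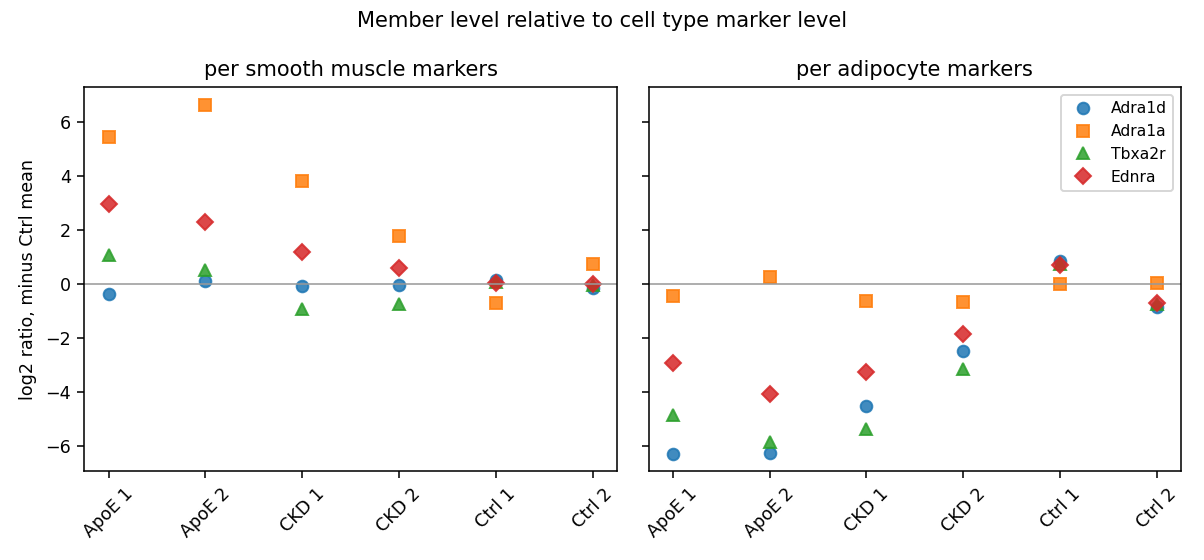
Log2 ratio of Adra1d, Adra1a, Tbxa2r and Ednra to the geometric mean of the smooth muscle markers (left) or the adipocyte markers (right) in each library, after subtracting the mean of the 2 Ctrl libraries, which is the line at 0. Adra1d stays near 0 per smooth muscle marker in all 6 libraries, and among the genes shown Adra1a stays nearest to 0 per adipocyte marker.

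Of 10 genes for endothelins and the proteases that make or degrade them, Edn1 and Ece1 included, 6 were tested. Edn1 and Cma1 rose in ApoE vs Ctrl, Cma1 rose in CKD vs Ctrl, and Edn1 was higher in ApoE than in CKD. Cma1, the mast cell chymase, stood at 17.2 and 13.2 FPKM in ApoE, 14.1 and 15.6 FPKM in CKD, and 5.26 and 7.14 FPKM in Ctrl, with log2 fold changes of 1.17 in ApoE vs Ctrl (limma adjusted p = 0.00535) and 1.15 in CKD vs Ctrl (0.0376). It is also one of the 7 mast cell markers. Mme, neprilysin, which degrades endothelin, was not called in any comparison (0.45 in ApoE vs Ctrl, adjusted p = 0.181).

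Of the other adrenergic receptors, Adrb3 and Adrb1 are described. Adrb3, the beta receptor of fat cells, stood at 25.1 and 29.6 FPKM in ApoE, 2.52 and 1.03 FPKM in CKD, and 1.85 and 2.60 FPKM in Ctrl. It rose by 3.14 in ApoE vs Ctrl (limma adjusted p = 0.000780) and was not called in CKD vs Ctrl (-0.26, adjusted p = 0.565). The adipocyte markers summed higher in CKD 1, and lower in CKD 2, than in either ApoE library. The ApoE vs CKD difference was 3.40 (limma adjusted p = 0.00108). Adrb1, the cardiac beta receptor, rose by 1.01 in ApoE vs Ctrl (limma adjusted p = 0.0119), with 2.77 and 2.00 FPKM in ApoE, 2.93 and 1.86 FPKM in CKD, and 0.676 and 0.663 FPKM in Ctrl.

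Genes beside Avpr1a and Tbxa2r were followed in the same way. Of 4 genes for other vasopressin and oxytocin receptors and the peptidase that degrades these hormones, only that peptidase, Lnpep, was abundant enough to be tested, and it fell in ApoE vs Ctrl by 0.99 (limma adjusted p = 0.0276). Of 12 thromboxane and prostanoid genes 10 were tested, with 4 higher and 2 lower in ApoE vs Ctrl, 0 called by limma in CKD vs Ctrl (3 higher and 2 lower at an unadjusted p under 0.05), and 4 higher and 2 lower in ApoE vs CKD. Tbxas1, thromboxane synthase, stood at 7.52 and 9.08 FPKM in ApoE, 1.26 and 1.87 FPKM in CKD, and 0.767 and 0.596 FPKM in Ctrl. It rose by 2.46 in ApoE vs Ctrl (limma adjusted p = 0.000396), where the receptor Tbxa2r fell by 2.35. Ptgis, prostacyclin synthase, which makes the dilator that opposes thromboxane, stood at 51.8 and 44.4 FPKM in ApoE, 224 and 374 FPKM in CKD, and 541 and 515 FPKM in Ctrl, and fell by 3.43 in ApoE vs Ctrl (limma adjusted p = 0.000512). The synthase of thromboxane was thus higher and that of prostacyclin lower in both ApoE libraries than in any other. Ptges, a prostaglandin E synthase, rose by 1.85 in ApoE vs Ctrl (limma adjusted p = 0.00122), and the prostaglandin receptor Ptger3 was 1.79 higher in ApoE than in CKD (adjusted p = 0.00453).

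Of 19 further vasoconstrictor receptors, 14 were tested. In ApoE vs Ctrl 4 were higher and 5 lower, in CKD vs Ctrl 1 was lower, and in ApoE vs CKD 3 were higher and 5 lower, so they did not move one way. The same holds for all genes tested, with 19.8% higher and 24.3% lower in ApoE vs Ctrl. P2rx1, the ATP-gated channel of smooth muscle, stood at 2.41 and 2.61 FPKM in ApoE, 15.5 FPKM in both CKD libraries, and 24.2 and 24.0 FPKM in Ctrl. It fell by 2.84 in ApoE vs Ctrl (limma adjusted p = 0.000172) and by 0.61 in CKD vs Ctrl (0.0409). The serotonin receptors went opposite ways in ApoE. Htr2b stood at 9.60 and 14.4 FPKM in ApoE, 0.0317 and 0.130 FPKM in CKD, and 0.0846 and 0.186 FPKM in Ctrl, and rose by 3.49 (limma adjusted p = 0.000271). Htr1b stood at 1.17 and 0.940 FPKM in ApoE, 4.14 and 6.67 FPKM in CKD, and 9.49 and 11.3 FPKM in Ctrl, and fell by 2.47 (limma adjusted p = 0.000739). Npy1r, the receptor for neuropeptide Y, a cotransmitter of sympathetic nerves, stood at 3.87 and 1.99 FPKM in ApoE, 39.9 and 70.3 FPKM in CKD, and 35.2 and 43.8 FPKM in Ctrl. Its level dropped by 3.82 on the log2 scale in ApoE vs CKD (limma adjusted p = 0.00119), and CKD and Ctrl overlapped. The angiotensin receptor Agtr1a was too low to be tested, at 0.631 and 0.797 FPKM in ApoE, 1.36 and 0.895 FPKM in CKD, and 0.216 and 0.522 FPKM in Ctrl.

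**Figure D5:**
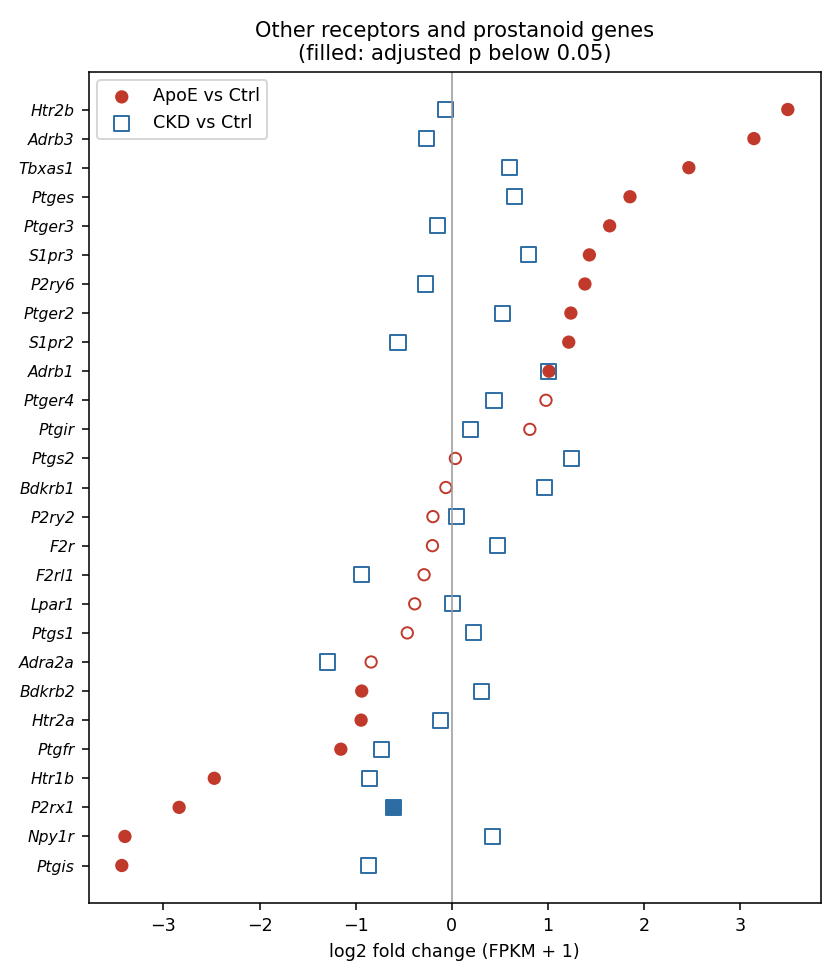
Log2 fold change on the scale of FPKM + 1 of adrenergic, prostanoid and other vasoconstrictor genes outside the 9 that were tested and are reported, in ApoE vs Ctrl (circles) and CKD vs Ctrl (squares), filled where the adjusted p was below 0.05 and ordered by the ApoE value. Htr2b (3.49) and Adrb3 (3.14) lie at the top and Ptgis (-3.43) at the bottom, and P2rx1 is the only filled square.

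Downstream of the receptors, the Gq genes moved both ways in ApoE vs Ctrl, as did all genes tested (19.8% higher and 24.3% lower). Of 15 genes for Gq and G12 coupling, all tested, 4 were higher and 6 lower in ApoE vs Ctrl, 0 were called by limma in CKD vs Ctrl (1 higher and 5 lower unadjusted), and 5 were higher and 5 lower in ApoE vs CKD. Plcb4, a phospholipase C that Gq activates, stood at 6.99 and 5.90 FPKM in ApoE, 31.3 and 43.9 FPKM in CKD, and 44.5 and 46.0 FPKM in Ctrl, and fell by 2.64 in ApoE vs Ctrl (limma adjusted p = 0.000401). The calcium release channel Itpr1 fell by 1.41 (adjusted p = 0.00183) and the kinase Prkca by 1.30 (0.00155). Plcb2, a phospholipase C best known from blood cells, was 2.31 higher in ApoE than in CKD (limma adjusted p = 0.00201), and Gna13 was 1.00 higher (0.00391).

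Of 11 genes that desensitise such receptors, 5 were higher and 2 lower in ApoE vs Ctrl, 0 were called by limma in CKD vs Ctrl (2 higher and 3 lower unadjusted), and 6 were higher and 3 lower in ApoE vs CKD. Arrb2, a beta-arrestin, stood at 53.0 and 48.9 FPKM in ApoE, 7.56 and 12.1 FPKM in CKD, and 9.89 and 10.5 FPKM in Ctrl, and rose by 2.21 in ApoE vs Ctrl (limma adjusted p = 0.000932). Rgs4, which shortens Gq signals, stood at 2.67 and 2.30 FPKM in ApoE, 7.49 and 14.7 FPKM in CKD, and 24.6 and 26.0 FPKM in Ctrl, and fell by 2.92 (adjusted p = 0.000960). Rgs2, of the same family, rose by 1.30 (limma adjusted p = 0.00199), and the receptor kinase Grk2 was 0.74 higher in ApoE than in CKD (0.00608). Of 9 genes for catecholamine synthesis, uptake and breakdown, 5 were tested. The transporter Slc22a3, which takes up noradrenaline outside nerves, rose by 0.99 in ApoE vs Ctrl (limma adjusted p = 0.0100), and the vesicular transporter Slc18a2 was 0.60 higher in ApoE than in CKD (limma adjusted p = 0.0495). In CKD vs Ctrl limma called 0 of this list (1 higher unadjusted).

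The genes whose pattern over the 6 libraries was most like that of a member were searched for the 5 members with a mean of at least 5 FPKM, among 7461 genes of that level, by the root mean square distance between log2(FPKM + 1) profiles centred on their means. Nearest to Edn1 was Vcam1, an endothelial adhesion molecule, at a distance of 0.0907, with 49.2 and 42.6 FPKM in ApoE, 13.4 and 23.1 FPKM in CKD, and 15.4 and 10.8 FPKM in Ctrl, followed by Fxyd5 (0.107) and Mcub (0.169). Nearest to Adra1d was Ptprz1, a receptor phosphatase, at 0.0612, with 0.485 and 0.463 FPKM in ApoE, 5.84 and 7.70 FPKM in CKD, and 14.6 and 10.4 FPKM in Ctrl, followed by Hspb1 (0.151) and Rasl12 (0.151). For Tbxa2r they were Gpsm2 (0.163), Pla2g4a (0.167) and Sspn (0.172), for Ece1 Cttnbp2nl (0.10), Etv5 (0.148) and Rcan1 (0.167), and for Ednrb Hsd11b1 (0.147), Efemp1 (0.182) and Apod (0.208). The profiles near Ednrb shared its gap between the ApoE libraries, which follows from choosing them by likeness. Hsd11b1 stood at 38.6 and 14.5 FPKM in ApoE, 24.1 and 23.3 FPKM in CKD, and 10.4 and 9.22 FPKM in Ctrl. Such likeness over 6 libraries is a description of these libraries.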

How the data were processed

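The deposited values were taken as FPKM from the values themselves, 27815 gene identifiers per library, of which 27730 matched a symbol and an exon length in GENCODE M21. In 5 files identifiers and values were stacked in 1 column. The submitters' processing notes name HISAT2 2.1.0, Bowtie2 2.2.3, TopHat2 and build GRCm38; how reads were counted is not given in the sources used here. Depth was fitted so that FPKM times exon length came to whole reads. At the fitted depth, 89.3% to 89.9% of the values above 0 lay within 0.05 of a whole read. For Ednrb and Adra1a whole reads came with exon lengths of 4037 and 8144 bases, against 4266 and 8728 in the annotation. Precision is limited by the reads, 5 to 7612 per member and library.

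Per the labels, libraries were unstranded, and reads from overlapping genes cannot be separated: Edn1, Ednra, Ece1, Adra1d and Avpr1a overlap an annotated noncoding gene, and among named genes of the other lists Adrb3, Agtr1a, Arrb2, Cysltr1, Gna13, Htr1b, Htr2b, Itpr1, Lnpep, Plcb4, Prkca, Ptges, Ptgis, Slc18a2, Slc22a3 and Tbxas1 overlap another gene. Apoe and the genes with the nearest patterns were not checked for overlap.

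The 14074 genes that reached 1 FPKM in at least 2 libraries were fitted as log2(FPKM + 1) with limma 3.58.1 in R 4.3.3 (group means over all 6 libraries, trended and robust spread), which was tested on simulated data, and p-values were adjusted by Benjamini-Hochberg over all of them. Fold changes on this scale understate changes of low genes. All 9 members are named, and of each other list up to 3 called genes with the smallest adjusted p per comparison, or the most abundant where none was called. The rule also takes the 2 most abundant genes of each marker list, of which Acta2 and Pf4 are given. Mme, Agtr1a, Edn2, Edn3, Cysltr1, Th and Dbh are named outside it. Some results of the lists are not reported here. The members and all lists were chosen with earlier results of these data known. Alternatives were the pseudocount, the filter, the libraries in the fit, a replicate block, scaling and an adipocyte covariate. That covariate was the mean log2(FPKM + 1) of the adipocyte markers. It was 6.67 and 6.87 in ApoE, 7.60 and 6.06 in CKD, and 3.93 and 5.00 in Ctrl. It thus differed between the groups, so fits with it cannot fully separate adipocyte level from group.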

Additional observations from a re-analysis of the deposited data

How the results depend on the processing

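Limits: 2 libraries per group leave few degrees of freedom, so 1 library or 1 more group in the fit moves many calls, above all in CKD vs Ctrl, and members with few reads, such as Adra1b and Avpr1a in ApoE, are the least precise. Limma called 6208 genes in ApoE vs Ctrl, 766 in CKD vs Ctrl and 5592 in ApoE vs CKD. With 1 library left out in turn the counts ran from 3021 to 7019, 0 to 2416 and 2914 to 5045, in that order. The replicate block, with replicate number as a term, gave 5159, 46 and 4556. Deviations of same-numbered libraries from their group means correlated at -0.10 for ApoE and CKD, 0.05 for ApoE and Ctrl and -0.23 for CKD and Ctrl. These values show no strong common shift by replicate number, but with 2 libraries per group they cannot exclude a shared batch. With adipocyte level as a covariate, 1607 genes were called in ApoE vs Ctrl and 0 in CKD vs Ctrl (1252 at an unadjusted p under 0.05). In CKD vs Ctrl 1 gene was called with no filter on low values and 1 with only the 4 libraries compared.

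Members called higher in ApoE vs Ctrl were 1, and 2 with a pseudocount of 0.1, 3 with only the 4 libraries compared, 2 with the covariate and 1 to 3 with 1 library left out. Members called lower there were 4, 1 with the covariate (Adra1d) and 3 to 5 with 1 library left out. In CKD vs Ctrl 2 were called lower, 1 with a pseudocount of 0.1 (Tbxa2r), 0 with no filter, with only the 4 libraries compared, under the replicate block or with the covariate, and 0 to 3 with 1 library left out. In ApoE vs CKD 3 were lower, 2 with no filter, with only the 4 libraries compared or under the replicate block, each of which ended the call of Tbxa2r, and 2 to 6 with 1 library left out, and 1 was higher, 0 with no filter or under the replicate block (Edn1, limma adjusted p = 0.0685 and 0.0538) and 0 to 1 with 1 library left out. The cause of these shifts was not tested.

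Signs turned for values near 0 or with wide intervals: Adra1a with the covariate (-0.15 in ApoE vs Ctrl, -0.48 in CKD vs Ctrl), and Ednra in CKD vs Ctrl without Ctrl 2 (-0.013) or CKD 1 (-0.042), within a range of -0.042 to 0.12 over the libraries left out. In ApoE vs CKD they turned without ApoE 2 for Ednrb (0.69), Ece1 (0.15) and Adra1a (-0.011), without CKD 2 for Ece1 (0.36) and Adra1a (-0.18), and for Ece1 under median-ratio (0.038) and upper-quartile (0.019) scaling. Over the libraries left out these values ran from -0.96 to 0.69 for Ednrb, -0.37 to 0.36 for Ece1 and -0.18 to 0.79 for Adra1a. No called member turned its sign under any of these alternatives.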

Other observations

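Some pathway genes that were too low for a test still had values that differ between libraries. Edn3, the third endothelin, stood at 0.0610 and 0.0327 FPKM in ApoE, 0.0822 and 0.354 FPKM in CKD, and 0.877 and 1.01 FPKM in Ctrl, with both Ctrl libraries above the others. Cysltr1, a leukotriene receptor, stood at 2.05 and 0.680 FPKM in ApoE, 0.276 and 0.525 FPKM in CKD, and 0.351 and 0.218 FPKM in Ctrl. Th, the first enzyme of catecholamine synthesis, was at most 0.658 FPKM, in CKD 1, and Dbh, which makes noradrenaline, was at most 0.0699 FPKM. These genes were chosen after their values were seen.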
